A study of Mus musculus with 16 samples.

Results

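The cytosolic ribosomal proteins are the protein subunits of the ribosome that translates nuclear-encoded mRNAs. A gene was taken as a member where its platform symbol is Rpl or Rps with a number, with the endings a, x and l and the stalk proteins Rplp0 to Rplp2 allowed, and with S6 kinases and pseudogenes left out. Of 18194 genes measured by probe sets that name 1 gene, 48 were members, and they were measured by 103 probe sets. The symbols used on the array name 42 of these as standard subunits and 6 as paralogues, whose symbols end in l or l1. The endings a1 and l1, which bring in Rps3a1, Rpl22l1 and Rpl7l1, were read as forms of a and l. LACA mice, a strain of laboratory mouse, gave RNA from white fat under the skin (subcutaneous, sWAT) and from the brown fat between the shoulder blades (interscapular, BAT), which was hybridised to 16 Affymetrix arrays. All animals were labelled male, untreated and fed standard chow, with no genetic change given, and their age is not given in the sources used here. Each tissue had 4 replicates of 2 arrays, which were averaged, and equal replicate numbers in both tissues are called a pair here. The values are log2 units relative to the median of the 16 arrays, so they give differences between samples and no level of one gene against another.

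Each ribosome joins a small subunit, which reads the mRNA, to a large subunit, which forms the peptide bond, and each subunit holds many proteins on a core of ribosomal RNA. Most ribosomal protein mRNAs start with a C followed by a run of pyrimidines, the 5' terminal oligopyrimidine (5' TOP) tract, through which mTORC1 and the protein Larp1 set their translation. Several ribosomal protein genes are also used as reference genes in quantitative PCR. Brown fat burns lipid in its mitochondria to make heat, and mitochondria carry a ribosome of their own with a separate set of proteins.

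The sequence around the transcription start is shown for the 4 members with the most negative differences, the 4 nearest 0 and the 3 most positive with a promoter in RefSeq, since a pyrimidine-rich start is the feature the standard subunits are known for. Each line holds 30 bases, 15 before and 15 from the annotated start onwards, 5' to 3' on the transcribed strand, from RefSeq on GRCm38.p6, with the upstream start where a gene had 2. The capitals mark CTTTC, searched on the transcribed strand only and anywhere in the 30 bases, so it need not lie at the start. CTTTC is a short pyrimidine run, and the 5' TOP tract itself was not searched for.
Rpl12, chr2:32961697-32961726, plus strand: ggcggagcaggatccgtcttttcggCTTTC
Rps25, chr9:44407699-44407728, plus strand: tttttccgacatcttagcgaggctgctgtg
Rpl22l1, chr3:28805493-28805522, plus strand: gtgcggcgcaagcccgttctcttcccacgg
Rpl13a, chr7:45128731-45128760, minus strand: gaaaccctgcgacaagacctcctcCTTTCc
Rps16, chr7:28350674-28350703, plus strand: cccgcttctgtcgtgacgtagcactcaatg
Rps4x, chrX:102189377-102189406, minus strand: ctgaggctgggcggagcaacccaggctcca
Rpl27a, chr7:109519180-109519209, plus strand: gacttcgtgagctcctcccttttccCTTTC
Rps2, chr17:24720048-24720077, plus strand: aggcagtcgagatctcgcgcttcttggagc
Rps27l, chr9:66946071-66946100, plus strand: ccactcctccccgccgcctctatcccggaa
Rpl39l, chr16:10170213-10170242, plus strand: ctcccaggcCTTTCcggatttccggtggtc
Rpl3l, chr17:24727811-24727840, plus strand: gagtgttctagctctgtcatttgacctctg
The letters were present in Rpl12 and Rpl13a among the most negative, in Rpl27a among those nearest 0 and in Rpl39l among the most positive. In Rpl39l they lay before the annotated start.
RefSeq gave a promoter for 42 of the 48 members. CTTTC stood in this window in 10 of 37 standard members (27.0%), in 3 of 67 mitochondrial ribosomal proteins (4.48%) and in 4.43% of 17491 protein-coding genes. CCGGAAG, the core that ETS factors bind, searched on both strands over 300 bases from 250 before the start, was present in 18 of the 37 (48.6%), against 37.3% of the mitochondrial ribosomal proteins and 12.9% of all genes. The difference between the tissues had a median of -0.60 for the 10 members with CTTTC and -0.73 for the 27 without, and -0.64 with and -0.79 without CCGGAAG, all on the log2 scale.

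The tissues matched their labels by marker genes, with 10 of 10 brown adipocyte markers higher in BAT and 5 of 7 white adipocyte markers lower. Of all genes, 21.0% were higher and 17.5% lower. Features of single libraries touch the results that follow. The arrays of sWAT replicate 3 and BAT replicate 1 each included 1 with low signal at the 5' end of the control transcripts of Gapdh and Actb (5' minus 3' signal of -4.79 and -3.56, against -1.23 to 0.46 on the other arrays). The libraries labelled BAT replicates 1 to 3 carried Xist, the RNA that coats the inactive X, at 5.74 to 6.36, whereas BAT replicate 4 and all sWAT replicates lay between -0.27 and -0.11. The mean of 3 Y-linked genes was -2.33 to -1.98 in BAT replicates 1 to 3 and 0.18 to 0.39 in the other 5. Sex-linked signal therefore went against the labels for BAT replicates 1 to 3. It also differed within pairs 1 to 3, so, as labelled, these pairs do not join tissues of 1 mouse. In pairs 1 to 3 a difference between tissues and one between sexes cannot be told apart, and the part of sex was not tested. The pair of replicate 4, whose tissues matched in these genes, is given on its own below.

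Most cytosolic ribosomal protein mRNAs were lower in BAT than in sWAT. With limma and Benjamini-Hochberg adjustment over all 18194 genes, 29 of the 48 members were lower in BAT at an adjusted p under 0.05, where 17.5% of all genes were. At that threshold 4 were higher in BAT, where 21.0% of all genes were, and 15 were not called. In either direction this makes 33 of 48, against 38.4% of all genes. By at least 2-fold, 12 members were lower (8.0% of all genes) and 3 higher (7.13% of all genes). Without replicate 2 the count of lower members was 18, when 12.6% of all genes were lower, and without replicate 1 the count at least 2-fold lower was 4. By the methods' paired test on the 4 pairs, with the same adjustment, 12 members were lower, when 9.55% of all genes were, and 4 of them by at least 2-fold. The median difference over the members, BAT minus sWAT, was -0.65, whereas the median over all genes was 0.15. All 4 BAT replicates lay below all 4 sWAT replicates for 27 members (17.4% of all genes) and above them for 3 (28.0% of all genes), and the groups overlapped for 18. In bulk tissue, fewer cells of a type rich in these mRNAs and less of the mRNA per cell cannot be told apart.

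**Figure D1:**
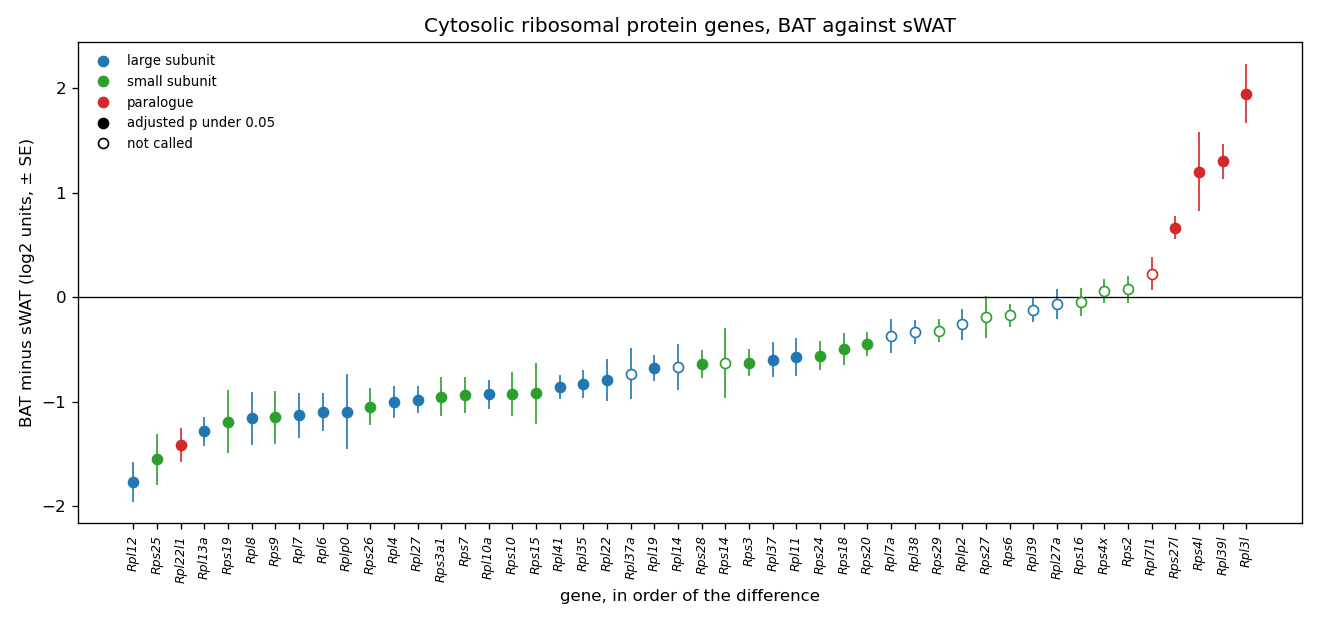
Difference of each of the 48 member genes, BAT minus sWAT in log2 units with the standard error, in rank order and coloured by kind and call. Of the 42 standard subunits 40 lie below 0, from Rpl12 at -1.77, as does the paralogue Rpl22l1 at -1.41, and the 4 members called higher in BAT, up to Rpl3l at 1.95, are all paralogues.

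All 4 members that were higher were paralogues. Among the 42 standard subunits 28 were lower, 0 were higher by limma, also at an unadjusted p under 0.05, and 14 were not called, and their median was -0.70. At the adjusted threshold 17.5% of all genes were lower and 21.0% higher. The large subunit had 15 of 22 lower with a median of -0.81, and all 22 had a negative difference. The small subunit had 13 of 20 lower with a median of -0.63, and 18 had a negative difference. Whether the subunits differ from each other was not tested.

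The size of the difference varied between replicates. The mean over the 42 standard subunits was -0.82, -0.50, -0.45 and -0.13 in BAT replicates 1 to 4, and 0.29, 0.21, 0.15 and 0.32 in sWAT replicates 1 to 4. The BAT values thus spread over a wider range than the sWAT values, with replicate 1 lowest and replicate 4 highest, and the groups did not overlap. In BAT replicate 1 the mean was -1.02 on the array with low 5' signal and -0.61 on the other. The first arrays of BAT replicates 1 to 4 stood at -0.61, -0.47, -0.46 and -0.12. The part of array quality in this spread was not tested. BAT replicate 4 was the highest of the BAT replicates in 36 of the 48 members, and BAT replicate 1 the lowest in 35. Within pairs 1 to 4, the median member difference was -0.93, -0.70, -0.55 and -0.32, with 41, 40, 39 and 39 of 48 members lower in BAT. Of all genes, 39.0%, 40.5%, 47.0% and 37.0% were lower in BAT in these pairs. The pair with matching sex-linked genes, pair 4, thus had the smallest difference in the same direction. In 34 members BAT was lower in all 4 pairs, which held for 22.0% of all genes.

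**Figure D2:**
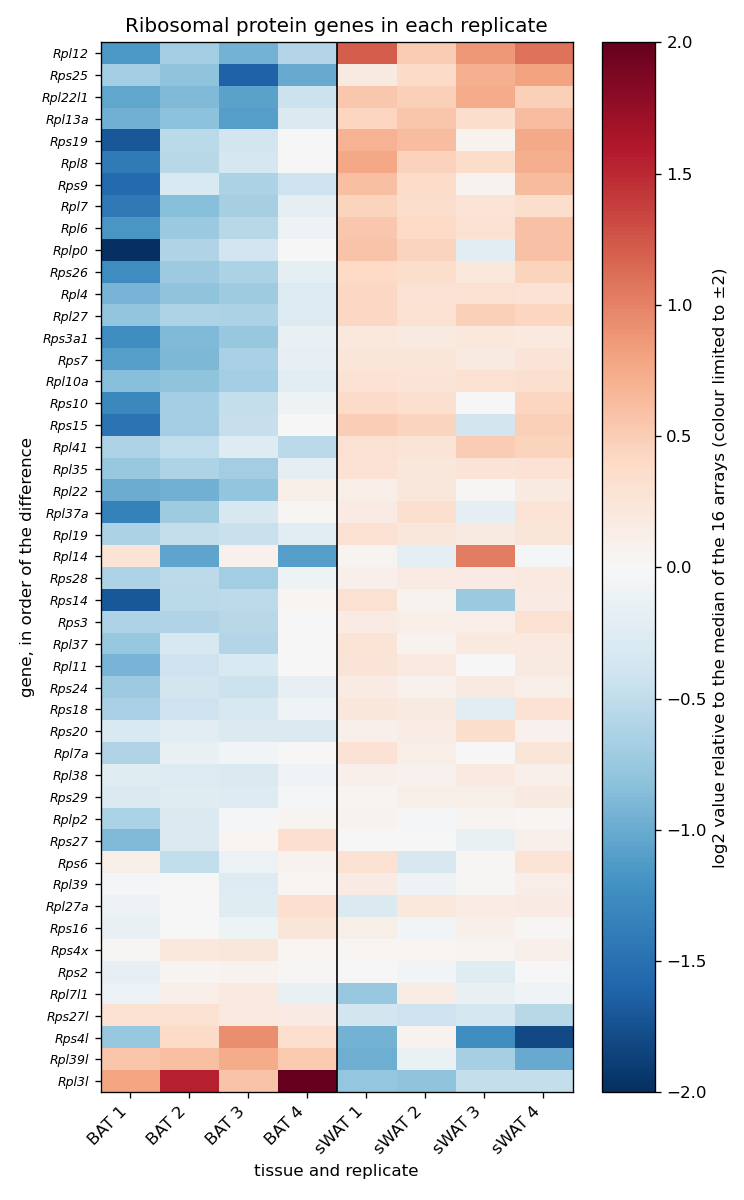
Values of the 48 member genes (rows, ordered by difference) in the 4 BAT and 4 sWAT replicates (columns), as log2 units relative to the median of the 16 arrays. BAT replicate 1 holds the lowest values and BAT replicate 4 values near 0, and the bottom rows, which hold 5 of the 6 paralogues, run the other way.

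Genes of other cell types differed between the same samples. Their counts stand against 17.5% of all genes lower in BAT and 21.0% higher. The mean of the B cell markers was -2.25 to -1.86 in BAT and 1.96 to 2.54 in sWAT, with 13 of 13 lower in BAT, and that of the T cell markers -1.57 to -0.89 and 1.49 to 2.28, with 12 of 13 lower. Proliferation genes had a mean of -1.65 to -0.61 in BAT and 0.91 to 1.71 in sWAT, with 14 of 14 lower, and 5 of 8 macrophage markers were lower and 1 higher. Skeletal muscle markers had a mean of 1.91 to 3.57 in BAT and -1.69 to -1.47 in sWAT, with 18 of 18 higher. The part of these cell types in the ribosomal protein differences was not tested. BAT replicate 4, where the ribosomal protein mean was highest among the BAT replicates, also had the highest BAT mean of T cell, proliferation and muscle markers, of white adipocyte markers (0.16, against -1.35 to -1.14) and of macrophage markers (0.38, against -1.17 to -0.24), and the lowest of brown adipocyte markers (1.5, against 2.67 to 2.77). For B cell markers BAT replicate 1, the lowest in ribosomal proteins, was the highest of the BAT replicates (-1.86, against -2.09 in replicate 4).

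**Figure D3:**
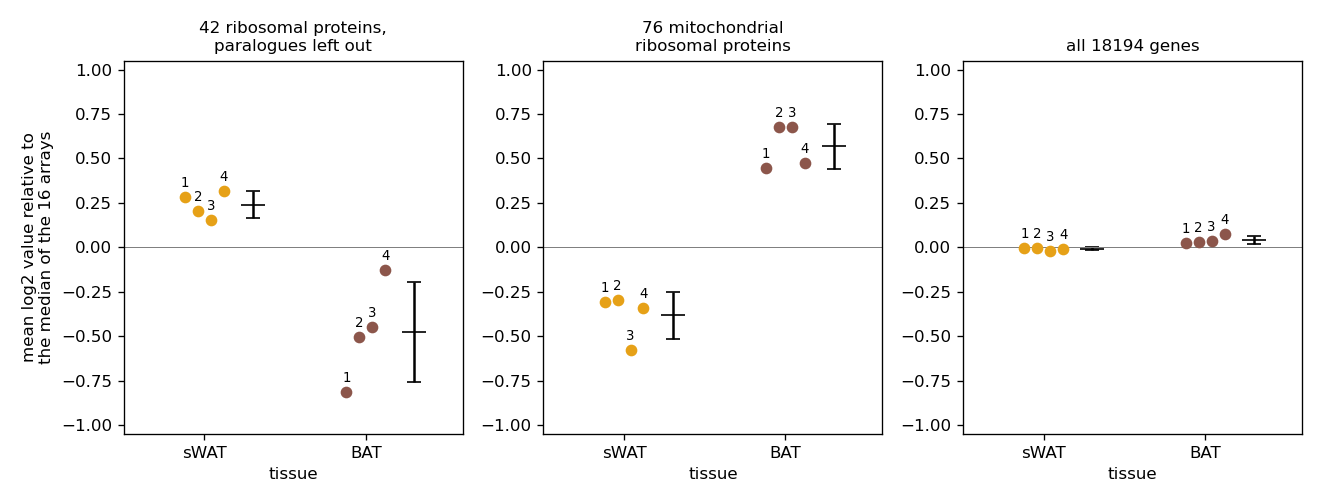
Mean over the genes of each group in each of the 4 BAT and 4 sWAT replicates, in log2 units relative to the median of the 16 arrays. The standard cytosolic subunits lie at -0.82 to -0.13 in BAT and 0.15 to 0.32 in sWAT. Black marks give the mean and SD, and the third panel shows all genes. The mitochondrial ribosomal proteins lie at 0.45 to 0.68 and -0.58 to -0.30.

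Among the standard subunits of the large subunit the difference was largest for Rpl12, which sits at the base of the stalk that recruits translation factors. Rpl12 stood at -1.14, -0.70, -0.94 and -0.59 in BAT replicates 1 to 4 and at 1.22, 0.51, 0.87 and 1.09 in sWAT. Every BAT value lay below every sWAT value by more than 1 log2 unit, and the fitted difference was -1.77 ± 0.19 (SE, n = 4 per tissue), or 3.40-fold lower (limma, adjusted p = 0.00054). Rpl13a, known also for a role in silencing inflammatory mRNAs, was -0.97, -0.82, -1.10 and -0.29 in BAT and 0.43, 0.55, 0.36 and 0.62 in sWAT. Its groups did not overlap, with BAT replicate 4 nearest to sWAT, and it was 2.44-fold lower in BAT (-1.28 ± 0.14, limma adjusted p = 0.00052), with all 4 of its probe sets lower (-2.16 to -0.74). Rpl8, which lies by the peptidyl transferase centre, was lower (-1.16 ± 0.25). Rpl7 was -1.43, -0.85, -0.67 and -0.18 in BAT against 0.27 to 0.44 in sWAT. BAT replicate 1 was lowest, BAT replicate 4 lay nearest to sWAT, and the difference was -1.13 ± 0.22 (limma adjusted p = 0.0063). Rpl6 at -1.10 ± 0.18, Rpl4, a protein of the exit tunnel, at -1.0 ± 0.15, Rpl27 at -0.98 ± 0.13, Rpl19 at -0.68 ± 0.13 and Rpl37 at -0.60 ± 0.16 were also lower. Rpl37 was past the threshold with all replicates but not without replicate 1, 2 or 3 (-0.45, -0.67 and -0.54, limma adjusted p = 0.087, 0.060 and 0.071).

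The P stalk, made of Rplp0 with Rplp1 and Rplp2, binds elongation factors. Rplp0 stood at -1.99, -0.60, -0.39 and 0.00 in BAT and at 0.58, 0.44, -0.21 and 0.59 in sWAT. The BAT values spread over nearly 2 log2 units and sWAT replicate 3 lay among them. The difference of -1.09 ± 0.36 was just past the threshold (limma adjusted p = 0.0496), and not without replicate 1, 2 or 4 (-0.60, -1.11 and -1.26, adjusted p = 0.072, 0.11 and 0.056). On the 2 arrays with low 5' signal Rplp0 was far below the other array of the same replicate, at -3.17 against -0.82 in BAT replicate 1 and at -0.93 against 0.50 in sWAT replicate 3. Without these 2 arrays its difference was -0.98 with an adjusted p of 0.0016, and 35 of the 48 members were lower, with a median of -0.64, where 20.5% of all genes were lower. Rplp2, the other stalk member measured by a probe set of its own, was -0.63, -0.28, -0.03 and 0.05 in BAT and -0.02 to 0.07 in sWAT. Its groups overlapped and it was not called (-0.26 ± 0.15, limma adjusted p = 0.20). Rpl11, which binds the 5S RNA and, when free, the p53 regulator Mdm2, was -0.93, -0.41, -0.30 and 0.00 in BAT and -0.01 to 0.26 in sWAT. The groups met at 0, and the difference was -0.57 ± 0.18 (limma adjusted p = 0.046). It was not called without replicate 1, 2 or 3 (-0.36, -0.56 and -0.66, limma adjusted p = 0.11, 0.14 and 0.054). In sWAT replicate 3 Rpl11 was -0.15 on the array with low 5' signal and 0.14 on the other. Once both low arrays were dropped, the difference was -0.53 (limma adjusted p = 0.016). The differences nearest 0 in the large subunit were those of Rpl27a (-0.07 ± 0.14) and Rpl39 (-0.12 ± 0.12), a small protein of the exit tunnel.

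In the small subunit Rps25, which some viral RNAs need to start translation without a cap, differed most. It stood at -0.69, -0.80, -1.62 and -1.01 in BAT and at 0.17, 0.39, 0.72 and 0.80 in sWAT. BAT replicate 3, not replicate 1, was the lowest here, the groups did not overlap, and BAT was 2.93-fold lower (-1.55 ± 0.24, limma adjusted p = 0.0026). By the methods' paired test on the 4 pairs Rps25 was not called (adjusted p = 0.068). Rps19, whose mutation causes Diamond-Blackfan anaemia, was -1.70, -0.54, -0.37 and 0.00 in BAT and 0.70, 0.62, 0.07 and 0.76 in sWAT. BAT replicate 4 came within 0.1 of sWAT replicate 3 without overlap, and the difference was -1.19 ± 0.30 (limma adjusted p = 0.020). With all arrays kept, the Rps19 difference was -0.79 without replicate 1 (adjusted p = 0.024), and not called without replicate 2 (-1.20, adjusted p = 0.054). Rps9, which lies at the mRNA entry channel, was lower (-1.15 ± 0.25). Rps3, also of that channel, was lower (-0.63 ± 0.13), with 2 of its 3 probe sets lower (-1.36 and -0.98) and 1 at 0.47 that was not called, and without replicate 2 the gene was not called (-0.59, limma adjusted p = 0.054). Rps27 was -0.88, -0.29, 0.03 and 0.34 in BAT and -0.14 to 0.11 in sWAT. The BAT replicates lay on both sides of sWAT, and it was not called (-0.19 ± 0.20, limma adjusted p = 0.46). Rps16 (-0.05 ± 0.13), Rps2 (0.07 ± 0.13), Rps4x (0.06 ± 0.12) and Rps6 (-0.17 ± 0.11), the target of the S6 kinases, were not called either.

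Of 14 ribosomal protein genes listed as reference genes for quantitative PCR, 12 were measured, 10 were lower in BAT and 0 were higher, and the median was -0.83. Of all genes, 17.5% were lower and 21.0% higher. The measured differences ran from Rpl13a at -1.28 to Rps29 at -0.32 ± 0.11 (limma adjusted p = 0.058). Rps18, the protein and not the 18S RNA, was lower (-0.49 ± 0.15, adjusted p = 0.041), but not without replicate 1, 2 or 4 (-0.36, -0.46 and -0.53, limma adjusted p = 0.12, 0.15 and 0.080). Rpl38 was not called at -0.33 ± 0.12 (adjusted p = 0.059). Actb, a common reference outside the ribosome, was lower in BAT (-1.28 ± 0.32, limma adjusted p = 0.019), and Gapdh stood at 1.27 ± 0.47 without passing the test (adjusted p = 0.071). The mean of Actb and Gapdh was -1.02 in BAT replicate 1 and -1.14 in sWAT replicate 3, the replicates with an array of low 5' signal. In the other replicates it was 0.14 to 0.50, and how far the low signal touches both differences was not tested.

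The paralogues did not share a direction. Rpl22l1, the paralogue of Rpl22, was -1.03, -0.88, -1.07 and -0.43 in BAT and 0.48 to 0.74 in sWAT. The groups did not overlap and it was 2.66-fold lower in BAT (-1.41 ± 0.17, limma adjusted p = 0.00078). Rpl22 itself, which is needed for T cell development, was -0.99, -0.96, -0.78 and 0.12 in BAT and 0.02 to 0.23 in sWAT, with BAT replicate 4 inside the sWAT range. It too was lower (-0.79 ± 0.20, limma adjusted p = 0.020), but was not called without replicate 1, 2 or 3 (-0.69, -0.66 and -0.79, adjusted p = 0.083, 0.084 and 0.0502).

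Rpl3l, which replaces Rpl3 in the ribosomes of skeletal and heart muscle, was 0.80, 1.56, 0.57 and 2.34 in BAT and -0.81 to -0.47 in sWAT. All BAT values were higher, with replicates 4 and 2 above 1 and 3, and BAT was 3.85-fold higher (1.95 ± 0.28, limma adjusted p = 0.0020). The muscle marker mean was likewise highest in BAT replicates 4 and 2 (3.57 and 3.17) and lower in 1 and 3 (2.15 and 1.91), and its part in the Rpl3l difference was not tested. Rpl39l, best known from testis, was 0.55, 0.60, 0.75 and 0.52 in BAT and -0.97, -0.14, -0.66 and -1.0 in sWAT. The BAT values lay close together above all of sWAT, and the gene was 2.46-fold higher (1.30 ± 0.17, limma adjusted p = 0.0011), while Rpl39 was not called. Rps27l, a p53 target, was 0.31, 0.31, 0.20 and 0.17 in BAT and -0.55 to -0.35 in sWAT. It was 1.59-fold higher in BAT without overlap (0.67 ± 0.11, limma adjusted p = 0.0037), with all 3 probe sets higher. Rps4l was -0.76, 0.38, 0.92 and 0.34 in BAT and -0.95, 0.07, -1.24 and -1.80 in sWAT. Its groups overlapped, though every pair was higher in BAT, and the difference was 1.20 ± 0.38 (limma adjusted p = 0.043). It was not called without replicate 3 or 4 (0.88 and 0.89, limma adjusted p = 0.12 in both). In BAT replicate 1 Rps4l was -2.01 on the array with low 5' signal and 0.48 on the other. In sWAT replicate 3 the values were -1.99 and -0.49. Once both low arrays were dropped, the groups did not overlap and the difference was 1.32 (limma adjusted p = 0.0064). Rpl7l1 was not called (0.23 ± 0.15, adjusted p = 0.27), and its 3 probe sets ran from -0.54 to 0.94. A probe set can bind RNA of a close paralogue or of a processed pseudogene, of which ribosomal protein genes have many, and how far this touches these values was not tested.

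**Figure D4:**
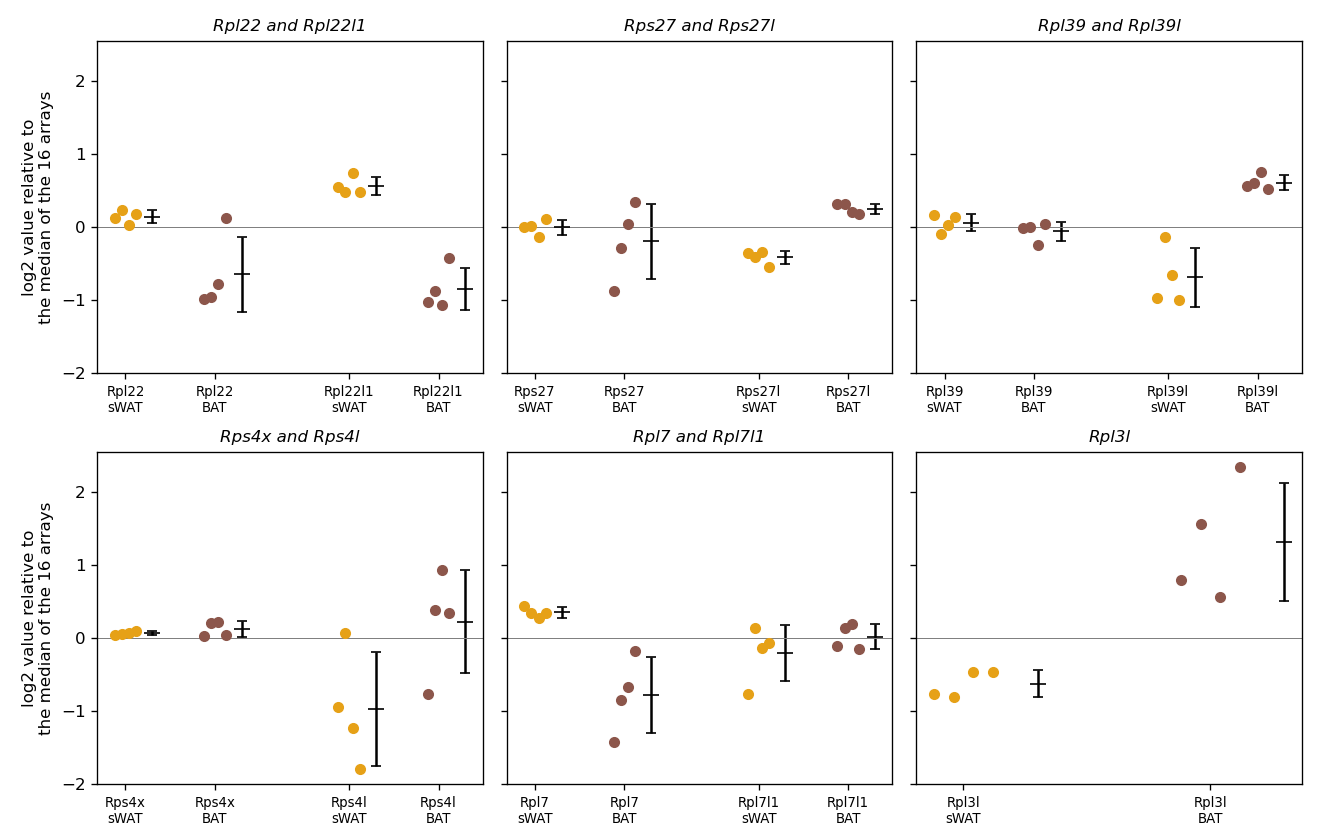
Replicate values of paralogues and of their standard counterparts where measured, in log2 units relative to the median of the 16 arrays, with BAT and sWAT side by side and black marks for the mean and SD of each group. Rpl3l, Rpl39l and Rps27l lie higher in all BAT replicates than in any sWAT replicate, whereas Rpl22l1 lies lower.

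At the level of single probe sets, 59 of the 103 were lower in BAT (17.3% of all 45101 probe sets), 9 were higher (15.1% of all) and 35 were not called, with a median of -0.76. Without replicate 2, 35 were lower. Probe sets whose name ends in _x_at share probes with other transcripts, and 26 of 40 of these were lower and 3 higher, where 20.9% and 19.2% of all _x_at probe sets were. Of those ending in plain _at, 11 of 32 were lower and 5 higher, against 16.5% and 13.9% of all _at probe sets. Of those ending in _a_at, designed to cover transcripts of 1 gene, 20 of 28 were lower and 1 was higher, against 19.0% and 20.4% of all. Another 34 probe sets with this ending carry a member symbol together with other symbols, so the ending does not leave out other genes. Of the 48 genes, 23 had more than 1 probe set: in 15 all differences were negative, in 1 all were positive and in 7 the signs were mixed.

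In 3 genes, probe sets were called in opposite directions. Rps4x, an X-linked subunit, had 1416276_a_at at -1.25, -0.92, -0.77 and -0.22 in BAT and 0.20 to 0.30 in sWAT, and 1420303_x_at at 1.30, 1.34, 1.20 and 0.30 in BAT and -0.21 to -0.07 in sWAT. Both were apart between the tissues, but by -1.04 ± 0.19 and 1.17 ± 0.22, so that the gene mean near 0 averaged opposite differences. Xist was high in BAT replicates 1 to 3 but not in BAT replicate 4, and the part of sex in both probe sets was not tested. Rps24, whose transcripts differ at the 3' end by splicing, had 5 probe sets lower in BAT and 1436500_at higher by 0.77 (limma adjusted p = 0.019), and its gene difference was -0.56 ± 0.14, not called without replicate 1 or 2 (-0.45 and -0.59, adjusted p = 0.057 and 0.061). Rps6 had 1416142_at lower (-0.78 ± 0.13) and 1453466_at higher by 0.43 ± 0.13 (limma adjusted p = 0.041). Which of these probe sets follows the standard transcript was not tested.

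**Figure D5:**
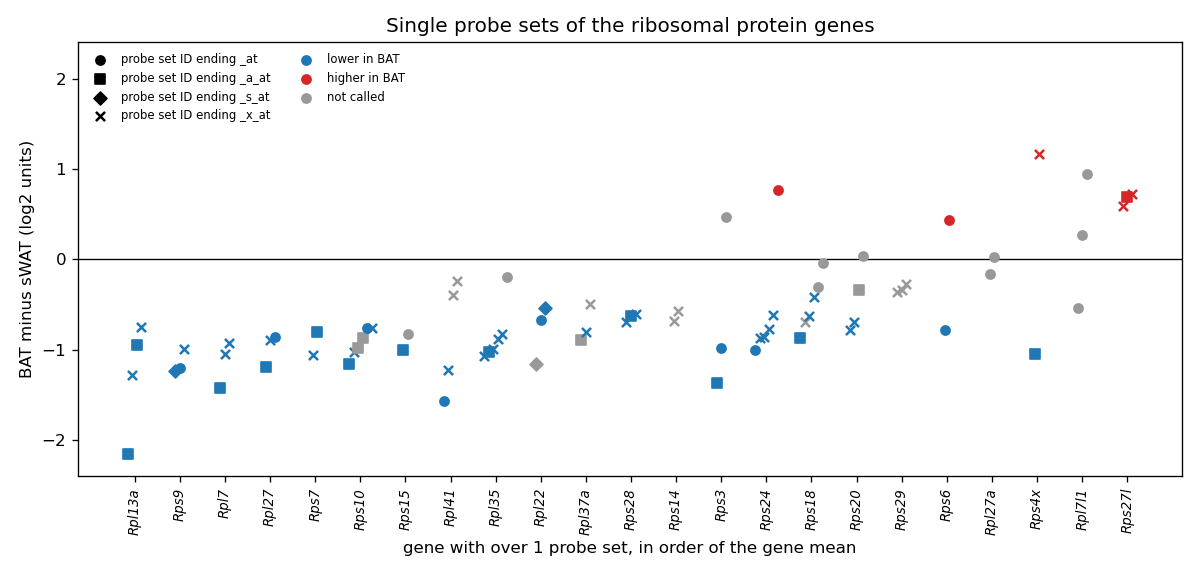
Difference of each member probe set, BAT minus sWAT in log2 units, by gene, for the genes with more than 1 probe set. Most genes have all points below 0, and Rps24, Rps4x and Rps6 have called points on both sides.

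A further 110 probe sets carry a member symbol together with other symbols and were left out of the counts above. Of these, 73 were lower in BAT and 0 higher by limma, also at an unadjusted p under 0.05, with a median of -0.74. At the adjusted threshold 17.3% of all probe sets were lower and 15.1% higher. The 110 probe sets reach 29 member symbols that no probe set names alone. For 25 of these a probe set holds no other member symbol, and 21 were lower, 0 were higher and 4 were not called, with a range of -1.36 to -0.09. The other 4, Rpl36a with Rpl36al and Rpl32 with Rpl32l, share their probe sets and could not be told apart, and their 3 probe sets were lower (-0.91, -0.89 and -1.11). Among the 25 told apart were Rpl3 (-0.98 ± 0.15) and Rpl5 (-0.92 ± 0.15), named here after their values were seen. Rpl5 binds the 5S RNA together with Rpl11. Rplp1, the remaining stalk protein, was at -0.51 ± 0.17 (limma adjusted p = 0.047). Counting these probe sets also for genes that have probe sets of their own put Rps6 (-0.52), Rps16 (-0.60) and Rps27 (-0.52) past the threshold as lower in BAT, as it did Rpl14 (-0.97) and Rpl37a (-0.69), named here after their values were seen. Rpl37 then lost its call (-0.37, limma adjusted p = 0.054), Rps19 moved from -1.19 to -0.62, and Rps2, still not called, turned from 0.07 to -0.06. Fau and Rpsa, subunits whose symbols fall outside the rule, were lower (-0.91 ± 0.18 and -0.48 ± 0.12).

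Genes around the ribosome were measured from lists of the translation pathway, whose counts stand against 17.5% of all genes lower and 21.0% higher. Of 22 measured genes with other 5' TOP mRNAs, 15 were lower in BAT and 1 was higher, with a median of -0.68, close to that of the standard subunits. They included Gas5, a non-coding host of small nucleolar RNAs (-2.01 ± 0.14), Npm1, a nucleolar chaperone (-1.57 ± 0.22), and Eef1b2, an elongation factor subunit (-1.25 ± 0.17). The elongation factors Eef1a1 (-0.28 ± 0.15, limma adjusted p = 0.18) and Eef2 (0.03 ± 0.22) were not called. The 1 that was higher was the X-linked initiation factor Eif2s3x (0.63 ± 0.13). Xist was high in BAT replicates 1 to 3 and in no sWAT replicate, and the part of sex in the Eif2s3x difference was not tested.

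Of 33 translation initiation factors, 6 were lower (18.2%) and 5 higher (15.2%), both near the share of all genes, with a median of -0.15, among them the poly(A)-binding protein Pabpc1 at -1.08 and Eif4e3, a cap-binding protein, at 1.23. Of 15 elongation and termination factors 3 were lower (20.0%), also near that share, with a median of -0.11. Of 56 genes of ribosome biogenesis, 23 were lower and 3 higher, with a median of -0.37. Nop58 (-1.88 ± 0.27) and Fbl (-1.33 ± 0.23), both of the particles that methylate ribosomal RNA, were lower, and Nop10, of the pseudouridylation particle, was higher (0.80 ± 0.14). Of 28 genes of RNA polymerase I and III with Myc, 8 were lower and 2 higher, with a median of -0.10, and Myc, a transcription factor that drives ribosome production, was lower (-2.11 ± 0.22, limma adjusted p = 0.00047). Of 18 genes of mTORC1 and the S6 kinases, 2 were lower and 7 higher, with a median of 0.27. Larp1, which binds 5' TOP mRNAs, was lower (-0.49 ± 0.13, limma adjusted p = 0.027), and the kinase Mtor was higher (0.99 ± 0.18).

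The mitochondrial ribosomal proteins, which share a function with the cytosolic set but not their ribosome, ran the other way. Of 76 measured, 63 were higher in BAT, where 21.0% of all genes were, and 36 by at least 2-fold, where 7.13% were. None was lower (0 by limma, also at an unadjusted p under 0.05), and the median was 0.97. Their differences ran from Mrps21 at 0.02 to Mrps36 at 2.48 ± 0.13. Their mean was 0.45, 0.68, 0.68 and 0.47 in BAT and -0.31, -0.30, -0.58 and -0.34 in sWAT. The cytosolic mean in BAT ran from -0.82 to -0.13, while the mitochondrial mean varied over a smaller range, and a difference between the 2 sets was not tested.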

How the data were processed

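The authors hybridised biotin-labelled RNA to 16 arrays and normalized them in GeneSpring by RMA with quantile normalization. As deposited, values are in log2 units, and the authors had centred each probe set on its median across the arrays. The 2 arrays of each replicate were averaged here. Of 45101 probe sets, 34958 name 1 gene, 932 several and 9211 none in the platform annotation, and a gene is the mean of its probe sets that name it alone. The difference BAT minus sWAT came from lmFit and eBayes of limma 3.58.1 under R 4.3.3. The replicate number was a block, as the methods used a paired test, although the sex-linked genes differed within pairs 1 to 3. Benjamini-Hochberg adjustment ran over all 18194 genes, or over all probe sets. The fit was tested on simulated data. Depth has no meaning for arrays, and the 4 replicates per tissue limit the precision. Nothing says that the replicates are more than 4 RNA sources per tissue. With the block, p-values of the main fit measure the spread of the BAT minus sWAT differences over these 4 replicate numbers. The members and lists were chosen with earlier results of these data known. Named members are the 10 most negative, the 6 most positive and the 4 nearest 0, those of the paralogue, P stalk, 5S and PCR reference lists, and genes whose probe sets were called in opposite directions. Of the other lists, the genes with the largest and smallest differences and genes of textbook role could be named. Alternatives were no replicate block, each replicate left out, each array alone, the arrays with low 5' signal left out, other scalings, other probe set choices and the methods' paired test. Counting probe sets with several symbols was chosen after seeing the data. Figures were drawn with matplotlib 3.10.9.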

Additional observations from a re-analysis of the deposited data

Results flagged for a closer look

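In 3 of 70 groups of 4 replicates tested for the named genes and the group means, 1 replicate lay apart from the other 3 by more of the group's range than Dixon's critical value, and chance gives this in about 1 of 20 groups. Rpl27a was -0.28 in sWAT replicate 1, where the other sWAT replicates lay between 0.15 and 0.21. Rps3 was -0.0059 in BAT replicate 4, where the other BAT replicates lay between -0.62 and -0.55. Rpl38 was 0.19 in sWAT replicate 3, where the others lay between 0.092 and 0.106.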

How the results depend on the processing

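The median member difference stayed between -0.76 and -0.57 in every alternative run. The count of members lower in BAT was 29, and 18 to 27 with 1 replicate left out (18 without replicate 2). Of all genes, 17.5% were lower with all replicates, and 12.6% to 16.9% with 1 left out. Leaving out 1 replicate gave 3 to 4 members higher, 4 (without replicate 1) to 18 (without replicate 4) at least 2-fold lower, 2 to 3 at least 2-fold higher, medians of -0.76 to -0.57 and 35 (without replicate 2) to 58 probe sets lower. Without the replicate block 32 members were lower and 4 higher, when 19.1% and 28.0% of all genes were, and 65 probe sets were lower. Equal replicate numbers correlated at -0.15, 0.08, -0.34 and 0.26, so the numbers are not shown to pair the samples, and not every replicate was closest to its own number.

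The first arrays alone gave 25 lower members, when 15.8% of all genes were lower, and 6 of them at least 2-fold lower. The methods' paired test on 4 pairs gave 12 lower and 2 higher members, when 9.55% and 10.1% of all genes were. Of these members 4 and 1 were at least 2-fold lower and higher. It also gave 13 lower probe sets, and the cause of the difference from the main fit was not tested. Scaling on the 3' Gapdh and Actb signal gave 20 lower members, when 10.4% of all genes were lower, and 39 lower probe sets. The median standard error over all genes was then 0.31, against 0.14 in the main fit. Without the paralogues 0 members were higher and 0 at least 2-fold higher. With probe sets of several symbols, 54 of 73 members were lower.

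For the named genes, 506 values under alternatives kept direction and call in 423, lost the call in 60, gained it in 13 and turned direction in 10. By the methods' paired test on 4 pairs, 15 of 34 named genes lost the call, 2 gained it and 17 stayed the same. Those that lost it included Rps25, Rps19, Rps9, Rpl8, Rpl7, Rpl6 and Rpl3l. Rps27 turned to 0.054 on the first arrays and to 0.035 without replicate 1 (lowest with 1 replicate left out, -0.33). Rps2 turned to -0.080 on the second arrays, -0.061 with several symbols and -0.0083 without replicate 3 (highest 0.16). Rps4x turned to -0.047 on the second arrays and to -1.04 (limma adjusted p = 0.0050) without _x_at and _s_at probe sets. Rps16 turned to 0.025 without replicate 1 and 0.0053 without replicate 3 (lowest -0.14), and Rpl27a to 0.040 without replicate 3 (lowest -0.15). Rplp0 lost its call in 9 alternatives, among them without replicate 1, 2 or 4, Rpl11 in 8 and Rps4l in 7, and Rps24 was -0.11 without _x_at and _s_at probe sets.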
